A study of Mus musculus with 6 samples.

Results

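Laminins and their basement membrane partners were described here in mouse embryonic stem (ES) cells of a Dppa4 knockout line and its parental line, through every probe set whose platform symbol is exactly Lama1, Lama4, Lama5, Lamb1, Lamb2, Lamc1, Nid1, Nid2, Hspg2 or Agrn. The 10 genes were chosen by name and not by a rule on measured values, but with earlier results of these data known. They had 21 of the 45037 probe sets tested. Total RNA was hybridised to 6 Affymetrix arrays. Of these, 3 carried RNA of CI#84.2, the Dppa4 hemizygous parental line, in which 1 functional copy of the gene remains, and 3 carried RNA of the Dppa4 knockout line CI#243.12. Each group is a single cell line, a wild-type line was not analysed here, and both lines shared the same support of mouse embryonic fibroblast feeders. Dppa4 encodes a chromatin-associated protein of pluripotent cells, and the comparison asks whether ES cells need it for their expression state.

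The basement membrane is a thin sheet of extracellular matrix on which epithelia and many other cells rest. Laminins are its main organisers: each is a trimer of an alpha, a beta and a gamma chain. Many are cross-shaped and form a network on the cell surface through integrins and dystroglycan. Nidogens bridge the laminin network to that of type IV collagen, and the heparan sulfate proteoglycans perlecan and agrin bind to both. ES cells deposit laminins as they differentiate and form embryoid bodies, and fibroblasts secrete matrix too. In a mixed culture of mouse ES cells and mouse feeders, the arrays give 1 value for the sum of both cell types. In such bulk RNA a smaller number of cells of a type cannot be told apart from less RNA per cell.

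None of the 10 genes passed the test between the lines. Of the 21 probe sets, 0 had an adjusted p under 0.05 (limma, Benjamini-Hochberg over the whole table), where 0.402% of all probe sets did; the members' adjusted p ran from 0.400 to 0.988. At an unadjusted p under 0.05 there were 2, 9.52% of the members against 9.49% of all probe sets: a lower value of Lama1 and a higher value of 1 of the Lama4 probe sets. Changes, given throughout as knockout minus parental on the log2 scale, were positive for 11 probe sets and negative for 10. Their median was 0.01, and the median over all probe sets was 0.00.

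A value was counted as above background when the higher of the group means exceeded 3.78, the 95th percentile of 80 olfactory and vomeronasal receptor probe sets. This held for 18 member probe sets, at least 1 for each of the 10 genes. The 3 dim ones were 1459614_at of Lama5, 1446180_at of Lamb1 and 1441519_at of Nid1, whose group means lay between 2.81 and 3.23; no fold is given for them.

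**Figure D1:**
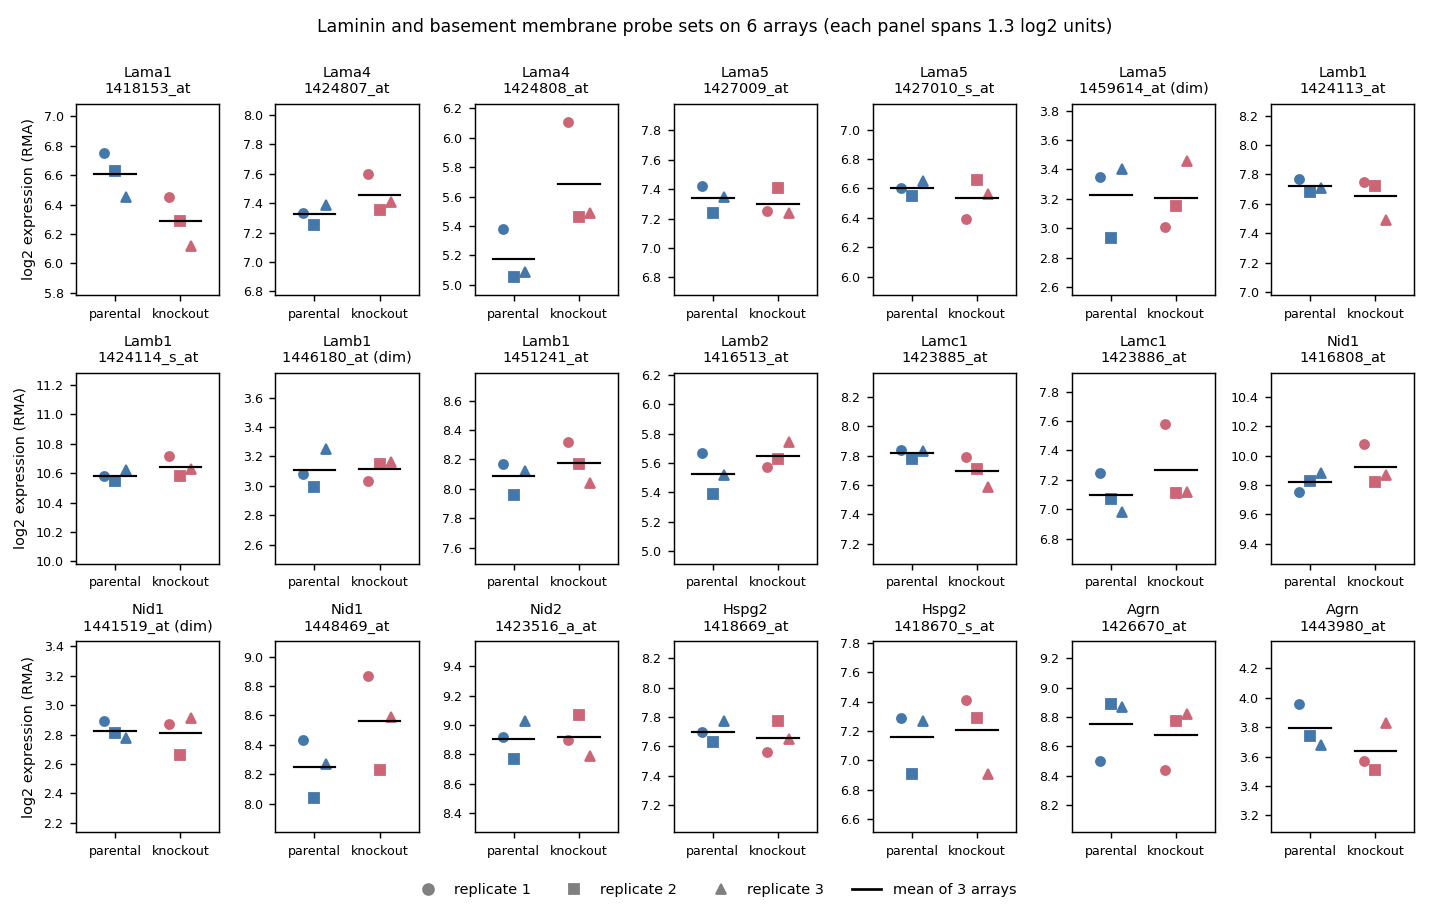
RMA log2 expression (vertical axes, each spanning 1.3 log2 units) of all 21 probe sets of the 10 genes in the 3 parental arrays (blue) and the 3 knockout arrays (red), with marker shape for the replicate number and a bar for the mean of 3 arrays. Points of the 2 groups interleave or touch in every panel but that of Lama4 1424808_at, where the lowest knockout array (5.46) is above the highest parental array (5.38).

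Alpha chains set what a laminin binds, and none of the 3 member genes for them passed. Lama1, on chromosome 17, encodes the alpha chain of the first laminins of the embryo. Its single probe set, 1418153_at, read 6.75, 6.63 and 6.45 in the parental arrays and 6.45, 6.29 and 6.12 in the knockout arrays. The groups met at 6.45, the lowest parental and the highest knockout value. The change was -0.32 (SE 0.11, 95% interval -0.58 to -0.07, unadjusted p = 0.0193, adjusted p = 0.403, limma), or 0.799 times the parental level. Leaving out any single array gave -0.41 to -0.24.

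Lama4, on chromosome 10, encodes the alpha chain found in vessel walls and other mesenchymal tissue. Its probe set 1424808_at read 5.38, 5.05 and 5.09 in parental and 6.11, 5.46 and 5.49 in knockout arrays. This was the sole member probe set whose groups did not overlap, 1 of 21 (4.76%), against 14.2% of all probe sets. Knockout replicate 1 stood apart at 6.11, while the other 5 arrays reached at most 5.49. The change of 0.51 (SE 0.18, 95% interval 0.11 to 0.92, unadjusted p = 0.0189, adjusted p = 0.400, limma) corresponds to 1.43-fold, and without that array it was 0.30 (adjusted p = 0.619). On the other Lama4 probe set, 1424807_at, parental arrays read 7.33, 7.25 and 7.39 and knockout arrays 7.60, 7.35 and 7.41, with overlap. Its change was 0.13 (SE 0.09, adjusted p = 0.725), and 0.06 without knockout replicate 1.

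Lama5, on chromosome 2, encodes the alpha chain of most epithelial basement membranes, and laminins that contain it support ES cells in culture. The probe set 1427009_at read 7.42, 7.24 and 7.35 in parental and 7.25, 7.41 and 7.24 in knockout arrays. Values of both lines covered nearly the same range. Its change was -0.04 (95% interval -0.23 to 0.16, adjusted p = 0.937, limma), and that of 1427010_s_at was -0.06 (95% interval -0.27 to 0.14, adjusted p = 0.881).

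None of the genes for the shared beta and gamma chains passed. Lamb1, on chromosome 12, encodes the beta chain of most embryonic laminins. Its probe set 1424114_s_at read 10.58, 10.55 and 10.62 in parental and 10.72, 10.58 and 10.63 in knockout arrays, so that knockout replicate 2 lay among the parental values. The change was 0.06 (SE 0.07, 95% interval -0.11 to 0.23, adjusted p = 0.863, limma), with the smallest SE of the 21 probe sets. The other Lamb1 probe sets above background gave -0.07 (1424113_at) and 0.09 (1451241_at), with adjusted p of 0.875 and 0.832. Lamb2, on chromosome 9, encodes the alternative beta chain of muscle synapses and kidney filters. It read 5.67, 5.39 and 5.52 in parental and 5.57, 5.63 and 5.74 in knockout arrays, a change of 0.12 (95% interval -0.10 to 0.34, adjusted p = 0.766). The highest knockout array was above all parental arrays, and the lowest was below parental replicate 1.

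Lamc1, on chromosome 1, encodes the gamma chain of nearly all laminins, and its 2 probe sets differed in sign. On 1423885_at the parental arrays read 7.84, 7.78 and 7.83 and the knockout arrays 7.79, 7.71 and 7.59, a change of -0.12 (95% interval -0.30 to 0.06, adjusted p = 0.711, limma). On 1423886_at they read 7.25, 7.07 and 6.98 against 7.58, 7.11 and 7.12, a change of 0.17 (95% interval -0.15 to 0.49, adjusted p = 0.775). Knockout replicate 1 was again the high array of the second probe set, whose change was 0.015 without it. The difference between the 2 changes was 0.29 in size, against an SD of the array-wise difference of 0.13 in parental and 0.20 in knockout arrays. The probe sets thus gave no common direction for the gene.

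Nidogens, the linkers of laminin and type IV collagen, were both well above background. Nid1, on chromosome 13, read 9.75, 9.83 and 9.88 in parental and 10.08, 9.82 and 9.87 in knockout arrays on 1416808_at. Knockout replicates 2 and 3 lay within the parental range. The change was 0.10 (95% interval -0.10 to 0.31, adjusted p = 0.792, limma). On 1448469_at, Nid1 read 8.43, 8.04 and 8.27 against 8.87, 8.23 and 8.59. There the change was 0.32 (SE 0.16, 95% interval -0.06 to 0.69, adjusted p = 0.608), and 0.16 without knockout replicate 1. Nid2, on chromosome 14, the second nidogen, read 8.92, 8.77 and 9.03 in parental and 8.90, 9.07 and 8.79 in knockout arrays. Its groups overlapped over almost their whole range, with a change of 0.01 (95% interval -0.22 to 0.25, adjusted p = 0.982).

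Both heparan sulfate proteoglycan genes lie on chromosome 4. Hspg2, which encodes perlecan, read 7.70, 7.63 and 7.77 in parental and 7.56, 7.77 and 7.65 in knockout arrays on 1418669_at, a change of -0.04 (95% interval -0.23 to 0.15, adjusted p = 0.927, limma). The group ranges were nearly the same. Its other probe set, 1418670_s_at, gave 0.05 (adjusted p = 0.958) with wider spread, from 6.91 to 7.41 in the knockout arrays. Agrn encodes agrin, which binds dystroglycan and clusters acetylcholine receptors at the muscle synapse. On 1426670_at it read 8.50, 8.89 and 8.87 in parental and 8.44, 8.77 and 8.82 in knockout arrays. In each line the array numbered 1 was the low one, and the change of -0.08 (95% interval -0.39 to 0.24, adjusted p = 0.912) was smaller than the SD within either group (0.22 and 0.21, n = 3). The other Agrn probe set, 1443980_at, was at the background level, with means of 3.79 and 3.64, and counted as above it through the parental arrays alone; no fold is given.

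The width of the intervals shows which changes these arrays could have missed. For 19 of the 21 probe sets the 95% interval lay inside 1.5-fold in both directions, as it did for 94.6% of all probe sets. For all 21 it lay inside 2-fold (99.4% of all). Those 19 include the 3 dim probe sets and Agrn 1443980_at, where a signal near background cannot bound a change of the transcript. The 2 exceptions to the narrower bound were 1424808_at of Lama4, whose interval reached 1.89-fold, and 1448469_at of Nid1, whose interval reached 1.62-fold. Lama1 came close on the low side, with an interval of 0.669 to 0.955 times the parental level. An adjusted p above the threshold does not show equal levels; it leaves differences up to these bounds.

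**Figure D2:**
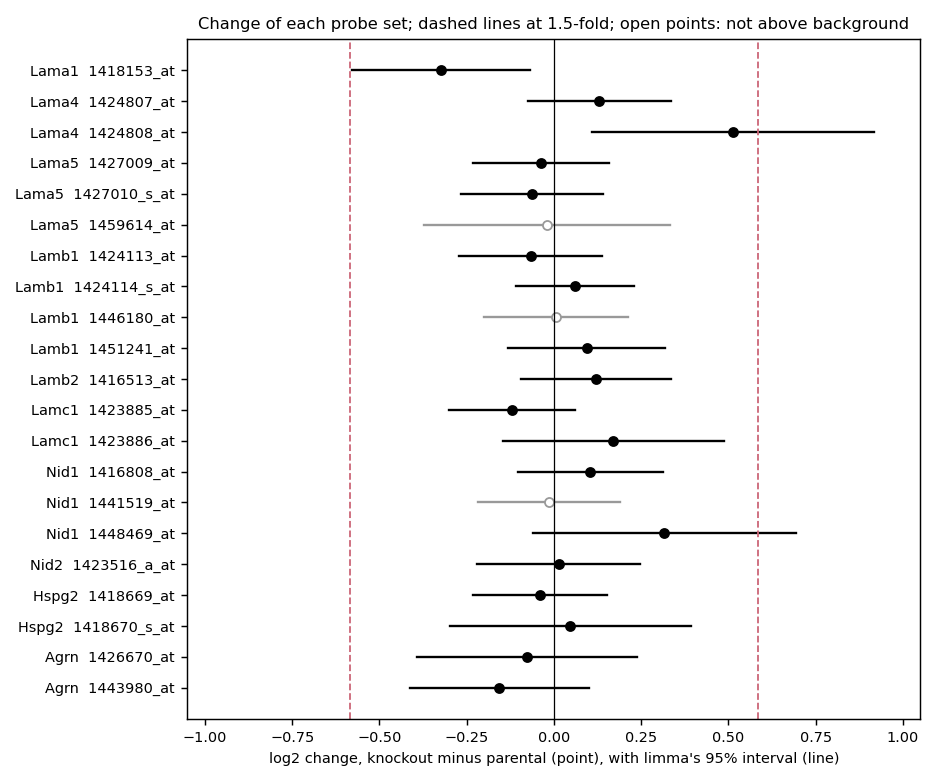
Log2 change, knockout minus parental (horizontal axis), of the 21 probe sets, with limma's 95% intervals as lines; dashed lines mark 1.5-fold and open grey points the 3 probe sets not above background. The intervals of 19 probe sets include 0 and those of Lama1 and Lama4 1424808_at do not, although neither passed after adjustment over 45037 probe sets.

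The members differed between the lines by about as much as the table at large, and single arrays stood out within each line. Over the 18 probe sets above background, the median absolute change was 0.10, against 0.09 over all 26803 probe sets above background. Knockout replicate 1 was the highest knockout array for 11 of the 18, while over all probe sets above background it was the highest for 30.1%. These 11 included all those of Lama1, Lama4, Lamb1, Lamc1 and Nid1 above background. The 11th was Hspg2 1418670_s_at, and for Lama5, Lamb2, Nid2, Agrn and Hspg2 1418669_at another knockout array was the highest. Parental replicate 1 was the highest parental array for 11 of the 18 as well (29.8% of all). Probe sets of a gene share transcripts, so these counts are not of independent values.

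**Figure D3:**
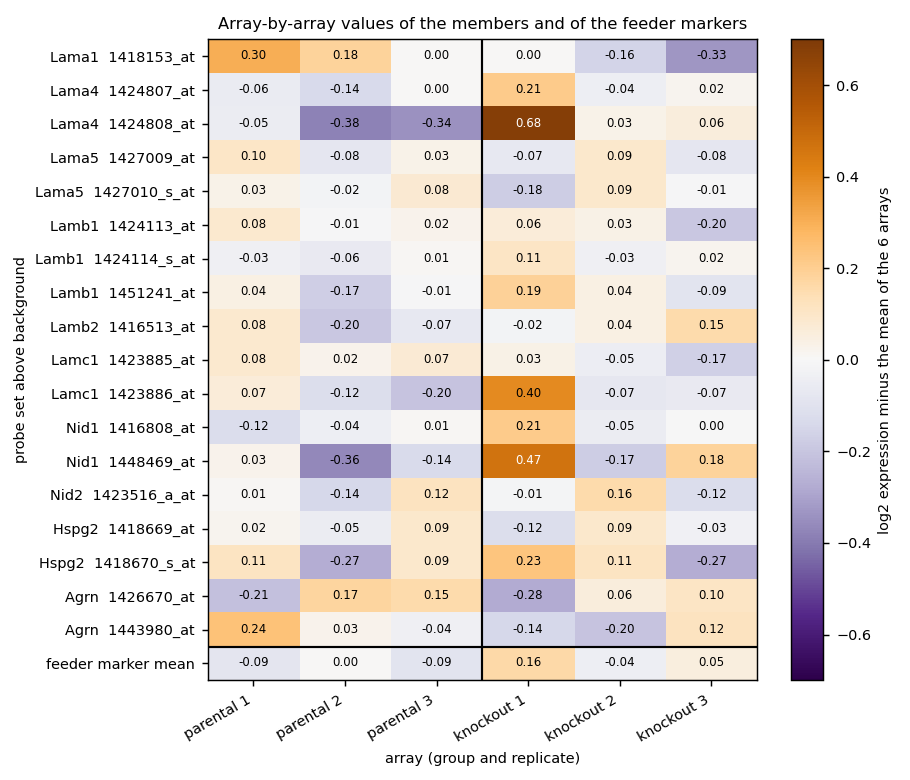
Log2 expression minus the mean of the 6 arrays (colour and printed value) for the 18 member probe sets above background, one row each, with the mean of 24 feeder fibroblast markers in the last row; columns are arrays and the vertical line separates the lines. The column of knockout replicate 1 holds the highest values of Lama4, of Nid1 and of Lamc1 1423886_at, and the highest feeder marker mean. It is also the highest for Lamb1 1424114_s_at and 1451241_at and for Hspg2 1418670_s_at. The same column holds the lowest values of Lama5 1427010_s_at, Hspg2 1418669_at and Agrn 1426670_at.

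Feeder markers were high on knockout replicate 1 too, but not on parental replicate 1. Of their 24 genes, 11 had their highest knockout value on knockout replicate 1, and 2 had their highest parental value on parental replicate 1. All 24 measured genes of the fibroblast list (of 25 listed) were above background, and the mean log2 level of the list per array ranged from 9.95 to 10.05 in parental and from 10.00 to 10.20 in knockout arrays, the highest being knockout replicate 1. None of its 44 probe sets passed. At an unadjusted p under 0.05 (limma), 3 were higher and 0 lower, against 9.49% of all probe sets in either direction. The median change over the list was 0.11 (0.11 above background), against 0.00 over all probe sets. Col1a2, a fibrillar collagen gene, gave 0.10 (1450857_a_at, adjusted p = 0.763, limma), and Col1a1 0.00 (1423669_at). Lum, which encodes the matrix proteoglycan lumican, gave 0.25 (adjusted p = 0.449, limma). The receptor gene Pdgfrb gave 0.27 on 1436970_a_at (adjusted p = 0.439, limma) but 0.09 on 1417148_at. With the feeder marker mean as a covariate, the changes became 0.26 for Lama4 1424808_at, 0.11 for Nid1 1448469_at and -0.03 for Lamc1 1423886_at. Their adjusted p were 0.773, 0.920 and 0.973 (limma). Other changes grew in size in the same fit: Lama1 to -0.41 (adjusted p = 0.519), Nid2 from 0.01 to 0.14 and Lamb2 from 0.12 to 0.20. The covariate thus did not shrink all member changes. The part of the feeder cells in these differences was not tested.

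ES cell and endoderm markers were read as a check of the cultures. All 10 ES cell markers were above background, with list means of 10.88 to 10.97 in parental and 10.84 to 10.87 in knockout arrays. Of 17 probe sets, 0 passed, and their median change was -0.06 (-0.07 above background). At an unadjusted p under 0.05 (limma), 0 were higher and 2 lower, against 9.49% of all probe sets in either direction. Pou5f1 and Sox2 gave -0.06 and -0.08 (adjusted p = 0.852 and 0.797, limma). Nanog and Tfcp2l1, both transcription factor genes of naive pluripotency, gave -0.49 and -0.32 (adjusted p = 0.122 and 0.391, limma). On 1429388_at of Nanog and 1418091_at of Tfcp2l1, all knockout arrays were below all parental arrays. Over all probe sets, 14.2% had groups without overlap. Primitive and parietal endoderm secrete much of the laminin of the early embryo. Of the 14 marker genes for them, 11 were above background, with list means of 5.17 to 5.35 in parental and 5.23 to 5.35 in knockout arrays; 0 of 34 probe sets passed and the median change was 0.05 (0.10 above background). Among the defining endoderm factors, Gata4 was below background on both of its probe sets (group means 3.11 to 3.53). Gata6 (1425464_at, 4.43 in parental and 4.33 in knockout arrays), Sox17 (1421657_a_at, 4.12 and 3.98) and Foxa2 (1422833_at, 4.65 and 4.82) were above it. Sox7 gave 0.20 (1416564_at, adjusted p = 0.727). Dab2 gave 0.25 (1420498_a_at, adjusted p = 0.682), and 0.14 and -0.02 on its other probe sets above background. The labels were also read against the targeted gene: Dppa4 (1429597_at) was 10.30, 10.35 and 10.45 in parental and 8.68, 8.84 and 8.68 in knockout arrays. The knockout arrays thus kept 0.322 times the parental signal, well above background, and whether this probe set lies inside or outside the deletion is unknown here. All 6 arrays correlated with each other between 0.994 and 0.997.

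The partners of the members gave the same count. In 10 lists of partner and marker genes with 320 probe sets, 0 passed (lowest adjusted p 0.0673, limma). Genes named from the partner lists, other than Lama3, were those of lowest unadjusted p, which favours groups without overlap (14.2% of all probe sets). Of the other laminin and netrin chains, 8 of 9 genes were measured and 5 were above background; the median change was 0.04 over 12 probe sets and 0.15 over the 7 above background, against 0.01 over all probe sets above background. Lama2, the alpha chain of muscle, gave 0.21 (adjusted p = 0.608, limma), and Lama3 gave -0.14 on 1427512_a_at (adjusted p = 0.731, limma). These were the only laminin probe sets above background in the list, and the others above background were of netrin genes. Ntn1, which encodes the secreted guidance protein netrin, read 8.14, 8.01 and 7.71 in parental and 8.48, 8.15 and 8.24 in knockout arrays on 1454974_at (0.34, adjusted p = 0.468), without overlap; its other probe set gave 0.05 (adjusted p = 0.953).

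Laminin and basement membrane receptors gave no call. The list of 18 genes had 51 probe sets, with a median change of 0.04 (0.05 above background). At an unadjusted p under 0.05 (limma), 3 were higher and 0 lower, against 9.49% of all probe sets in either direction. Itga6, the alpha subunit of the main laminin-binding integrins, read 7.71, 7.45 and 7.61 in parental and 7.89, 8.01 and 7.85 in knockout arrays on 1422444_at. All knockout arrays were above all parental arrays there and on 1422445_at, with changes of 0.33 (SE 0.09, adjusted p = 0.281, limma) and 0.22 (SE 0.09, adjusted p = 0.479). Bcam, a receptor for Lama5 chains, read 7.25, 7.09 and 6.98 against 7.52, 7.35 and 7.32, again without overlap (0.29, SE 0.10, adjusted p = 0.383). Neither passed.

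Genes that add the laminin-binding sugar chain to dystroglycan were measured for 12 of 16 names, with 20 probe sets and a median change of 0.07 (0.08 above background). Of these, 5 were higher and 0 lower at an unadjusted p under 0.05 (limma), which 9.49% of all probe sets reached in either direction. After adjustment 0 passed, and the list mean was 6.87 to 6.90 in parental and 6.91 to 7.01 in knockout arrays. Dpm1, a subunit of the enzyme that makes the mannose donor, read 8.69, 8.70 and 8.70 in parental and 9.08, 9.08 and 9.09 in knockout arrays on 1449438_at. This separation of 0.39 (SE 0.07, adjusted p = 0.0673, limma) was over an SD of 0.006 in each group. An SD this small is below the rounding step of the deposited values. Dpm1 passed with an intensity trend, without moderation and when probe sets above background alone were tested. The fit without moderation rests on that SD and called 1 probe set in all. The other Dpm1 probe set, near background, gave 0.18 (1419353_at, adjusted p = 0.693). B3galnt2, an enzyme of the same sugar chain, gave 0.32 on 1454842_a_at and 0.21 on 1434135_at (adjusted p = 0.322 and 0.456).

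In the list of type IV collagen and its processing, 0 of 28 probe sets passed, and the median change was 0.04 (0.07 above background). At an unadjusted p under 0.05 (limma) there were also 0, against 9.49% of all probe sets. The X-linked chain gene Col4a5 gave 0.41 (1425476_at, SE 0.21, adjusted p = 0.601, limma), with overlap, and 0.17 on its other probe set. The prolyl hydroxylase gene P4ha1 gave 0.30 (1426519_at, adjusted p = 0.591, limma), also with overlap, and 0.09 on its other probe set. Other basement membrane proteins had 40 probe sets, 0 of which passed, with a median change of -0.003 over all and 0.07 over the 29 above background. Smoc1, a calcium-binding matrix protein gene, read 6.66, 6.54 and 6.60 in parental and 5.84, 6.25 and 6.22 in knockout arrays. Its change was -0.50 (SE 0.12, adjusted p = 0.186, limma), without overlap, as for 14.2% of all probe sets. Fbln1, which encodes fibulin, gave -0.24 on 1439688_at (adjusted p = 0.329), and -0.05 and -0.06 on its other probe sets.

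Heparan sulfate genes, whose enzymes build the chains of perlecan and agrin, had 35 probe sets with a median change of 0.07 (0.08 above background) and 0 that passed. Sulf2, a sulfatase acting on these chains, gave 0.34 on 1442408_at (adjusted p = 0.440, limma) but -0.02 and 0.08 on its other probe sets. Extl3 gave 0.21 on 1421339_at (adjusted p = 0.494) and 0.02 on the other. Among 39 probe sets of basement membrane proteases and their inhibitors, 0 passed and the median change was 0.09 (0.10 above background). The proteoglycan-cleaving protease gene Adamts5 gave 0.33 on 1456404_at (adjusted p = 0.259, limma), where the groups did not overlap, as for 14.2% of all probe sets. Its other probe sets above background gave 0.20 and 0.08. The cathepsin gene Ctsb gave 0.26 on 1417492_at (adjusted p = 0.548, limma), and between -0.007 and 0.12 on its other probe sets.

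**Figure D4:**
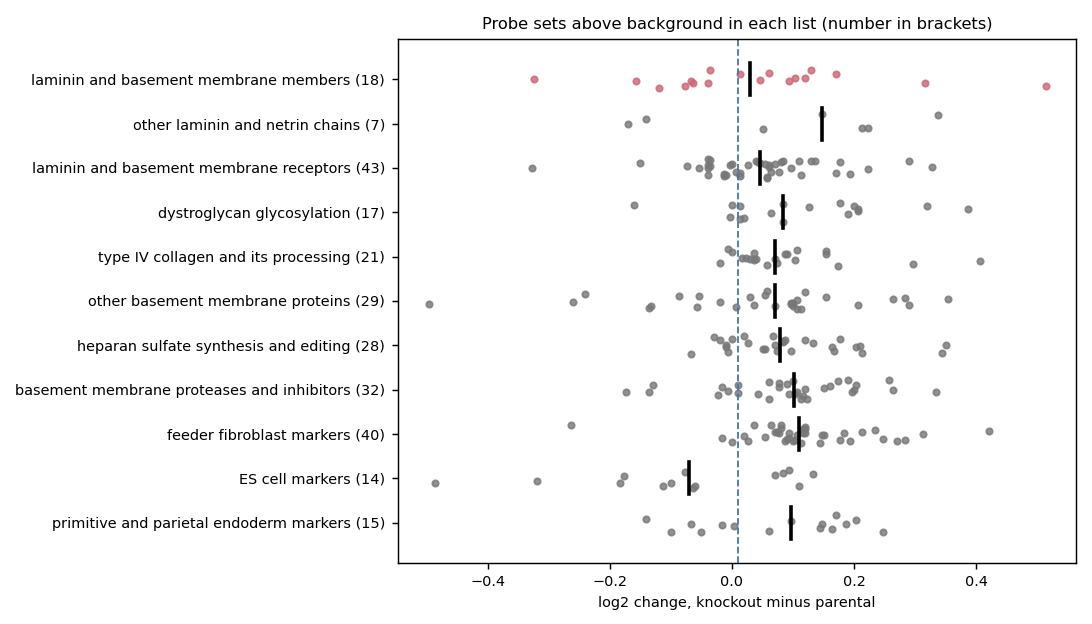
Log2 change, knockout minus parental (horizontal axis), of the probe sets above background of the members (red) and of the 10 lists (grey), with the number of probe sets in brackets, a black bar at each median and a dashed line at the median of all probe sets above background (0.01). The members' median is 0.03, and that of the other laminin and netrin chains, mostly netrin probe sets, is 0.15. That of the feeder markers is 0.11 and that of the ES cell markers -0.07. None of the points shown passed the test.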

How the data were processed

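The authors deposited 1 table with a log2 value for each probe set on each array, made with RMA per the submitters' processing notes (software and settings: not given in the sources used here). The log2 scale was inferred from the range of 2.12 to 13.98. RMA equalises the arrays' distributions, so a shift of most transcripts would not show. Array medians were 4.21 to 4.25, and precision is limited by having 6 arrays. Of 45101 probe sets, 64 controls were left out; probe sets named for several genes (932) held no member. Names come from the platform annotation, with list symbols and chromosomes also matched through gene IDs to RefSeq (GRCm38.p6). The lines were tested against each other by limma 3.58.1 under R 4.3.3 (lmFit and eBayes without covariates, two-sided), and p-values were adjusted by Benjamini-Hochberg over 45037 probe sets; the procedure was tested on simulated data. A permutation test of 3 arrays against 3 cannot give a p below 0.1, so none was used. For marker list means, the brightest probe set of each gene was averaged.

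The members, lists and alternatives were chosen with earlier results of these data known. All member probe sets are described, with Dppa4, Pou5f1, Nanog, Sox2, Col1a1 and Col1a2. From each list the genes that passed were to be named. As none passed, the 2 genes with the lowest unadjusted p among probe sets above background were named from every list. The endoderm factors Gata4, Gata6, Sox17 and Foxa2 and the laminin gene Lama3 were named after their values were seen. The labels do not say that replicates were separate cultures, so p-values reflect only the scatter of these samples, possibly technical. Protein and probe sequences were not used here.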

Additional observations from a re-analysis of the deposited data

How the results depend on the processing

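Under every alternative run, 0 member probe sets were called, including leave-one-out fits, and the lowest adjusted p of a member was 0.284 (Lama4 1424808_at, replicate block). The members' median change ran from -0.052 to 0.075, both ends coming from fits without 1 parental array. The direction of Lama1, of both Lama4 probe sets, Lamb2, Nid1 1448469_at, Lamc1 1423885_at, and of Lamb1 1424114_s_at and 1451241_at held in all settings fitted per probe set that kept them. With the feeder marker mean as a covariate, uncalled changes turned sign for Agrn 1426670_at (0.022), Hspg2 1418669_at (0.082), Lama5 1427009_at (0.071), 1427010_s_at (0.078) and 1459614_at (0.17), Lamc1 1423886_at (-0.034) and Nid1 1416808_at (-0.017). Leaving out single arrays turned the sign for Agrn 1426670_at (-0.20 to 0.042), Hspg2 1418669_at (-0.095 to 0.01) and 1418670_s_at (-0.077 to 0.19), Lama5 1427009_at (-0.092 to 0.005), 1427010_s_at (-0.125 to 0.01) and 1459614_at (-0.17 to 0.078), Lamb1 1424113_at (-0.115 to 0.015) and 1446180_at (-0.052 to 0.078), Nid1 1441519_at (-0.062 to 0.063) and Nid2 (-0.062 to 0.078).

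Over all probe sets, 181 were called, against 88 with the replicate block, 42 with the feeder covariate, 312 with an intensity trend and robust prior, 1 without moderation, 32 with treat at 1.5-fold and 70 to 112 without 1 array. In the partner and marker lists the count of 0 became 1 among probe sets above background (Dpm1), 2 with the intensity trend (Dpm1 and Nanog) and 1 without moderation (Dpm1). Replicate numbers do not pair the arrays by the labels, and deviations of same-numbered arrays correlated at 0.112, -0.364 and -0.287. Those of parental replicate 2 with knockout replicate 3 and of parental replicate 3 with knockout replicate 2 correlated at 0.371 and 0.379, so arrays may share structure that the block by number does not hold. No crossed block was fitted, since nothing in the labels pairs these arrays. The block changed no member's call.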
